A study of Mus musculus with 15 samples.

Results

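Mouse neural progenitor cells that received the hairpin shLINE_Orf1 together with a full-length LINE-1 (shLINE_Orf1+LINE-1) were compared with cells that received the hairpin shLINE_MdV_I, across all genes. The members are the 3 libraries of each of these groups, 6 of the 15 libraries of the series, chosen by their group labels, and 15141 of 34910 genes had enough counts to be tested. All cells were wild-type progenitors grown with FGF2, EGF and heparin, and all were nucleofected with plasmids for EGFP and a hairpin, a short RNA that directs the breakdown of transcripts it pairs with. The libraries came from EGFP-expressing cells sorted after 3 days. The other groups are shLINE_Orf1 without the added LINE-1, shLINE_Orf2 and shControl, with 3 libraries each. Per the design text, hairpins were made against young and old LINE-1, and the added LINE-1 went with a hairpin against young LINE-1. The labels do not say whether the MdV_I hairpin is against young or old elements.

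The compared groups differ in the hairpin and in the added LINE-1 at once, so these cannot be told apart, and the values of the other groups are given beside the results as a description. The table counts annotated transcripts, so RNA of LINE-1, of EGFP and of the plasmids was not measured, and neither the knockdown nor the added element was checked. Nothing in the labels says that replicates came from separate cultures, so the p-values given below measure no more than the spread among these libraries, which may be technical.

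LINE-1 is a family of retrotransposons, which spread in the genome by way of an RNA that is reverse transcribed, and its copies make up a large part of mouse DNA. Neural progenitors are dividing precursors of neurons, astrocytes and oligodendrocytes. RNA or DNA of foreign or retroelement origin can be read by sensors that switch on type I interferon. Interferon binds its receptor, which activates transcription factors that bind short promoter elements of interferon-stimulated genes. Low oxygen acts through another switch, the HIF factors, which raise genes for glycolysis and blood vessel growth.

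The 6 libraries held between 46245076 and 51070448 gene counts, and values are given as CPM, counts relative to the scaled library total. Sums of CPM over marker lists and CPM of untested genes are relative to the unscaled total. On the first principal component of the 6 libraries, with 29.8% of the variance, the shLINE_Orf1+LINE-1 libraries lay at -19.5, -22.1 and -20.9 and the shLINE_MdV_I libraries at 19.9, 21.0 and 21.7. The third replicates of both groups lay apart from the others on the second component (20.9%), at -20.6 and -27.3. The model was fitted to all 15 libraries, which include shLINE_Orf1 replicate 1 and shControl replicate 2. These lay at 75.9 and 24.3 on the first component of all libraries, with the other libraries between -18.8 and 4.72. Neither is in the compared groups, but both enter the estimate of spread, so counts of genes are also given without them and from the 6 compared libraries alone. Transcripts of Lars2 took 3.36% to 3.47% of gene counts in shLINE_Orf1+LINE-1 and 2.82% to 3.20% in shLINE_MdV_I, and mitochondrial mRNAs 1.59% to 1.63% in shLINE_Orf1+LINE-1 and 1.37% to 1.61% in shLINE_MdV_I. The part of these shares in the results was not tested.

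In shLINE_Orf1+LINE-1 cells 17 of 55 interferon-stimulated and 4 of 24 MHC class I genes were called higher than in shLINE_MdV_I cells, and 3 of 39 glycolysis and hypoxia and 3 of 42 neuronal genes lower. At a Benjamini-Hochberg adjusted p under 0.05 in edgeR's quasi-likelihood test, 103 genes (0.68% of those tested) were called. Of these, 61 (0.403%) were higher and 42 (0.277%) lower in shLINE_Orf1+LINE-1. Absolute log2 fold changes of the called genes ran from 0.39 to 3.31, with a median of 0.81. In all 103 genes the groups did not overlap, which held for 27.2% of all genes tested (13.7% higher, 13.5% lower). The call count depends strongly on the libraries fitted. It was 1190 (8.21%) in a fit of the 6 compared libraries alone and 575 (3.73%) without the divergent pair. It was 20, 43 and 33 (0.129%, 0.278% and 0.214%) without shLINE_Orf1+LINE-1 replicates 1, 2 and 3, and 25, 29 and 36 (0.162%, 0.188% and 0.233%) without shLINE_MdV_I replicates 1, 2 and 3. Of the genes tested, 0.66% were called with RLE scaling, 0.515% with unscaled library sizes, 0.476% with no filter, 0.88% with a stricter filter and 0.714% with thinned libraries. DESeq2 called 2.32% and limma-voom with quality weights 11%, and a replicate block gave 0.456% over all libraries and 12.9% over the 6 compared. With groups that do not overlap, leaving out a library or rescaling totals could hardly reverse a direction, so kept directions are no independent support. All 103 genes kept their direction under each of the 18 alternatives that gave a value. For 101 these were all 18, while Dlx3 and Barhl2, named here for that reason, did not pass the stricter filter. Of the 103, 17 (11 higher) were called under every alternative. The shControl mean of the 61 higher genes was nearer to shLINE_Orf1+LINE-1 in 41 and nearer to shLINE_MdV_I in 20. For the 42 lower genes it was nearer to shLINE_Orf1+LINE-1 in 25 and to shLINE_MdV_I in 17. These positions are descriptions, with no test.

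**Figure D1:**
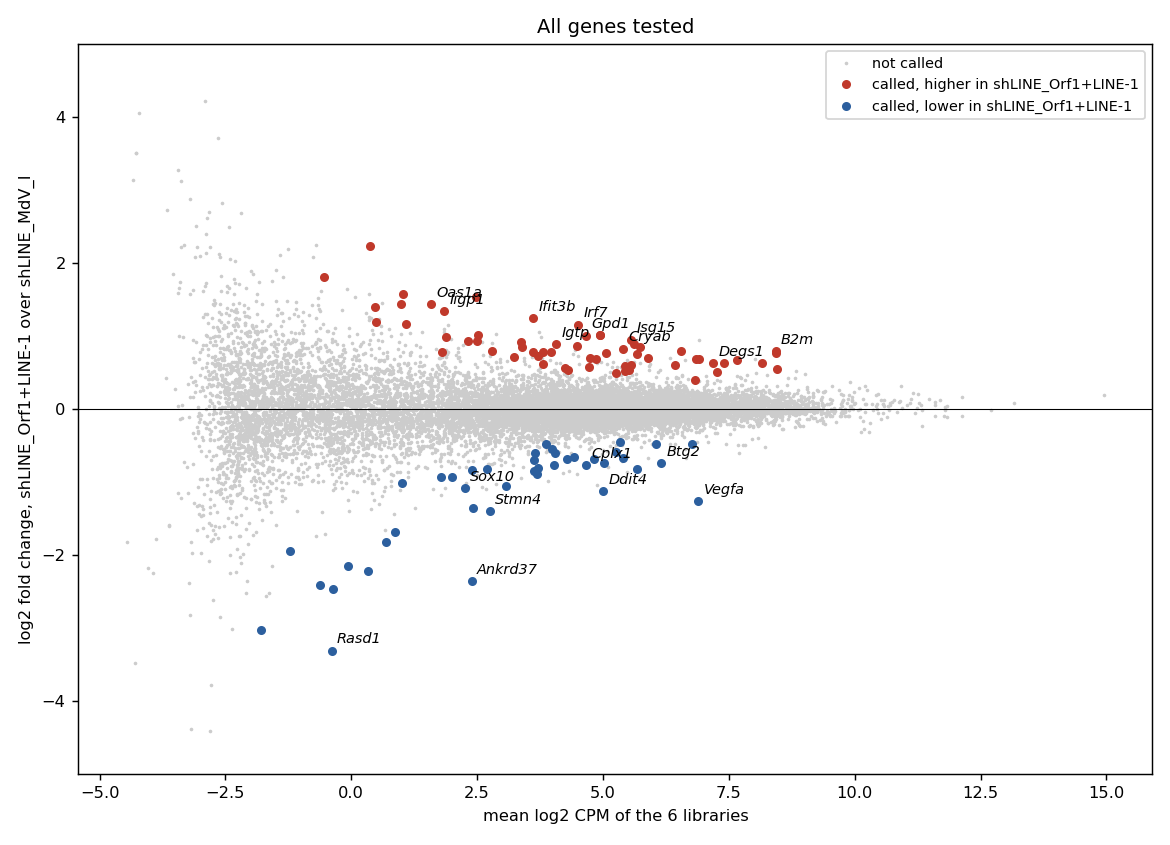
Log2 fold change of shLINE_Orf1+LINE-1 over shLINE_MdV_I (y) against the mean log2 CPM of the 6 libraries (x) for each gene tested, with genes called at an edgeR adjusted p under 0.05 in red (higher) and blue (lower). The 61 higher and 42 lower genes spread over all but the highest levels, and 8 genes, none of them called, lie beyond the plotted range of the y axis.

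Gene lists put names to these calls. Of 32 lists, 15 held at least 1 called gene, and 36 of the 103 called genes were in a list. The median log2 fold change over all genes tested was -0.00. It was furthest above this in the interferon list (0.55), the MHC class I list (0.42) and the RNA and DNA sensor list (0.38). It was furthest below in the glycolysis and hypoxia list (-0.39) and the neuronal list (-0.34).

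**Figure D2:**
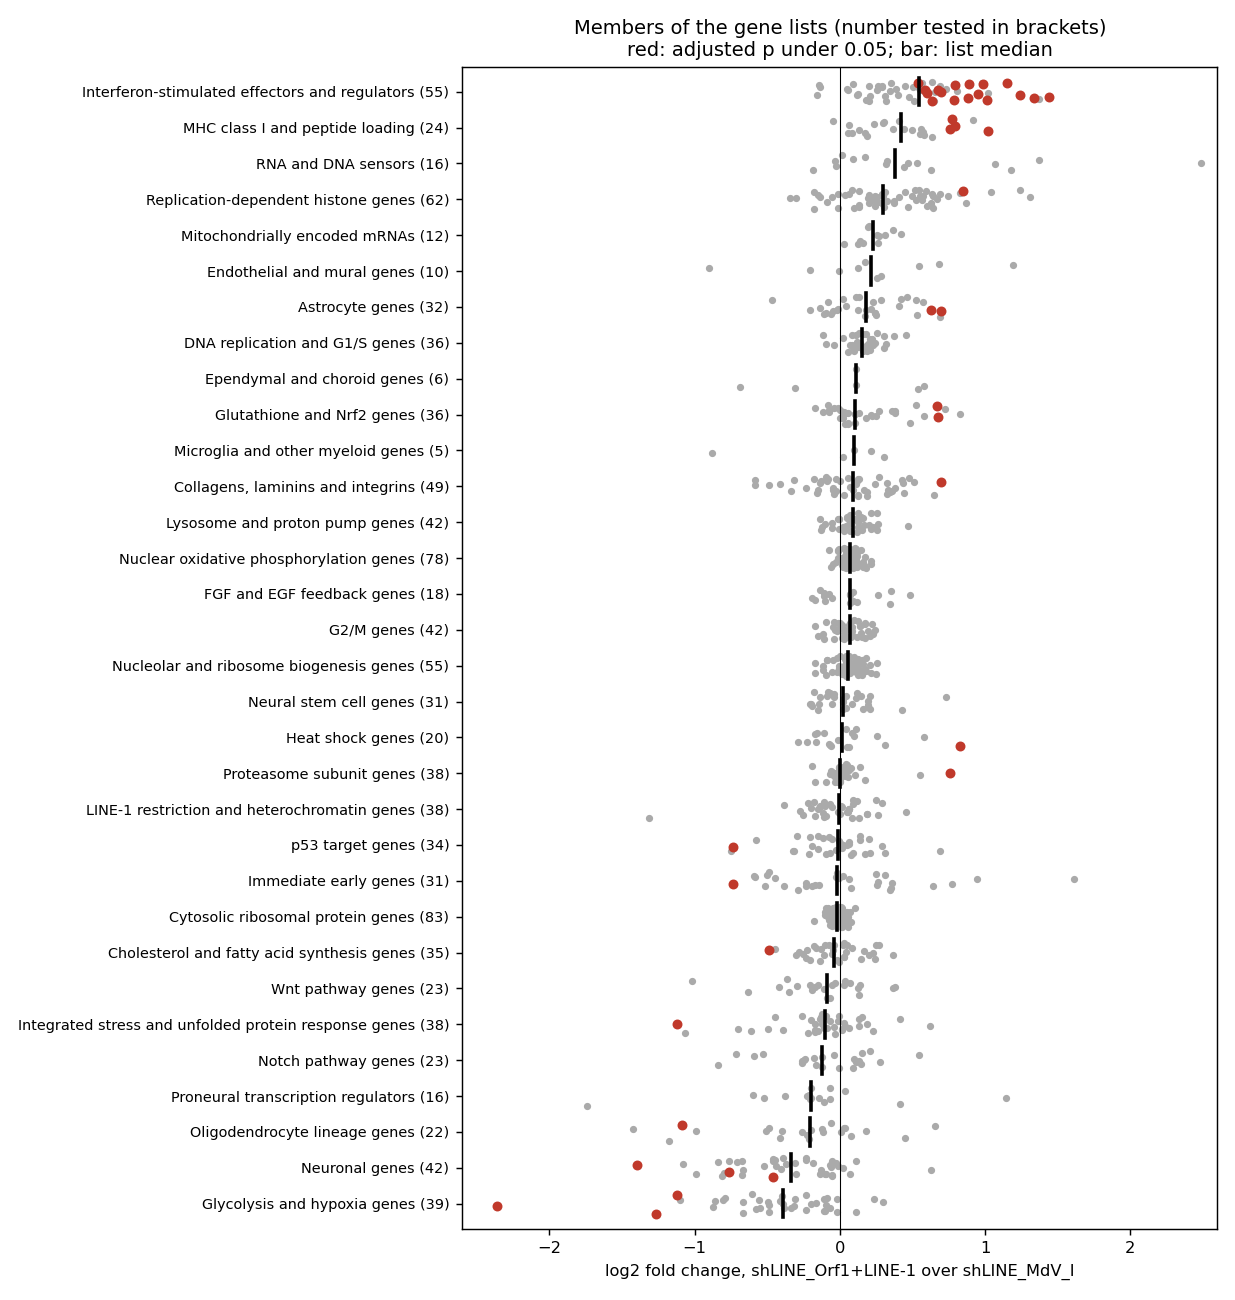
Log2 fold change of shLINE_Orf1+LINE-1 over shLINE_MdV_I (x) for the tested members of 32 gene lists (rows, sorted by list median), as points, with called members in red and the list median as a bar. Called members of the interferon and MHC class I lists lie only to the right of 0 and those of the neuronal and the glycolysis and hypoxia lists only to the left.

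Interferon-stimulated genes held the most calls of any list. Of 58 genes, 55 were tested, and 17 (30.9%) were called, all higher in shLINE_Orf1+LINE-1, against 0.403% of all genes. Of the 55, 52 had a positive log2 fold change, and in 44 every shLINE_Orf1+LINE-1 library was above every shLINE_MdV_I library, as in 13.7% of all genes. The list's mean, in log2 CPM relative to the mean of the 6 libraries, was 0.31, 0.22 and 0.30 in the shLINE_Orf1+LINE-1 libraries and -0.27, -0.24 and -0.31 in the shLINE_MdV_I libraries. It was 0.03, 0.16 and 0.13 in shLINE_Orf1, 0.18, 0.07 and -0.07 in shLINE_Orf2, and 0.33, 0.06 and 0.01 in shControl. The shLINE_MdV_I libraries were thus the 3 lowest of the 15, and shLINE_Orf1+LINE-1 overlapped shControl. In such bulk RNA, fewer cells of a type and less RNA per cell cannot be told apart. The 6 compared libraries alone called 38 members (8.21% of all genes) and the fit without the divergent pair 32 (3.73%). Without shLINE_Orf1+LINE-1 replicates 1, 2 and 3 the count was 4, 10 and 7 (0.129%, 0.278% and 0.214% of all genes). Without shLINE_MdV_I replicates 1, 2 and 3 it was 4, 5 and 7 (0.162%, 0.188% and 0.233%). Calls over all genes thus fell in these fits too.

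The 3 members with the smallest p, Igtp, Isg15 and Ifit3b, are shown with the 250 bases before their transcription start (RefSeq, GRCm38.p6), because each holds the core motif of the interferon-stimulated response element. Capitals mark matches to the motif searched, which is GAAA, any 2 bases and again GAAA, on either strand. Sequences run 5′ to 3′ along the strand of the gene. Igtp is at chr11:58199306-58199555 on the plus strand, Isg15 at chr4:156200819-156201068 on the minus strand and Ifit3b at chr19:34607707-34607956 on the plus strand.
Igtp: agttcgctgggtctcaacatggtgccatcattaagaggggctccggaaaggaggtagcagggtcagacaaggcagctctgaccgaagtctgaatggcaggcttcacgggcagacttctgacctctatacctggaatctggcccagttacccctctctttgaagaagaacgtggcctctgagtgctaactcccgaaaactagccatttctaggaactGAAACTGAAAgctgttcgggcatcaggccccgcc
Isg15: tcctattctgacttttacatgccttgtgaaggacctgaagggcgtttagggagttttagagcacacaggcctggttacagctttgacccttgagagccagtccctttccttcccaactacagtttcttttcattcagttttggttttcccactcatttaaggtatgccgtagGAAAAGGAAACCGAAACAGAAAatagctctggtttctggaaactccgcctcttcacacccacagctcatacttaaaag
Ifit3b: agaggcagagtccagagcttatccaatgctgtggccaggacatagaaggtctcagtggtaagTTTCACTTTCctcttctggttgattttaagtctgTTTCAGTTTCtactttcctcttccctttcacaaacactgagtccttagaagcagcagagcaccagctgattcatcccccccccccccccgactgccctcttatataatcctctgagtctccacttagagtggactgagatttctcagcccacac

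Igtp has 1 match, from base -34 to -25 counted from the start. Isg15 has 3 that overlap in 1 run, from -78 to -57, and Ifit3b has 2 on the other strand, between -188 and -145. Of the 17 called members, 13 had a promoter in the RefSeq table, and 8 of these (61.5%) held the motif on either strand. It was in 9 of 28 tested members that were not called (32.1%) and in 2 of 32 genes called lower (6.25%). Of 11214 tested genes with a promoter, 355 held it (3.17%), as did 936 of 27025 in the whole table (3.46%). A match is a description of these bases and does not show that a factor binds.

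Igtp, an interferon-induced GTPase of the cell-autonomous defence, had 24.2, 20.3 and 24.2 CPM in shLINE_Orf1+LINE-1 libraries, against 11.9, 12.1 and 13 CPM in shLINE_MdV_I libraries. The log2 fold change was 0.89 ± 0.11 (SE, edgeR adjusted p = 0.00305). Isg15, a ubiquitin-like protein that is attached to other proteins, had 68.5, 64.9 and 61.9 CPM in shLINE_Orf1+LINE-1, against 34.8, 32.9 and 33.5 CPM in shLINE_MdV_I. It rose by 0.95 ± 0.13 on the log2 scale (edgeR adjusted p = 0.00323). Ifit3b, which belongs to a family of RNA-binding antiviral proteins, had 19.6, 16.4 and 20.4 CPM in shLINE_Orf1+LINE-1, against 7.89, 7.98 and 7.99 CPM in shLINE_MdV_I. Its log2 fold change was 1.24 ± 0.17 (edgeR adjusted p = 0.00323). Both groups were tight in these genes and far from overlapping. In shControl Igtp, Isg15 and Ifit3b averaged 18.7 ± 1.25, 49.7 ± 10.4 and 17.7 ± 4.46 CPM (SD, n = 3), above all shLINE_MdV_I libraries. Igtp, Isg15 and Ifit3b kept their calls without any single library.

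Among the receptor and transcription factor genes of the pathway, Irf7 and Irf9 were called. The receptor chains Ifnar1 and Ifnar2 had log2 fold changes of -0.15 ± 0.10 and -0.13 ± 0.09 and were not called (edgeR adjusted p = 0.787 and 0.838). With Mx1, an antiviral GTPase (-0.15 ± 0.21, edgeR adjusted p = 0.999), they were the members with a negative value. Irf7, the factor that amplifies interferon production, had 33.8, 32.0 and 35.9 CPM in shLINE_Orf1+LINE-1, against 14.8, 15.8 and 15.1 CPM in shLINE_MdV_I. That is a 2.23-fold difference (log2 1.15 ± 0.18, edgeR adjusted p = 0.00715), and the shControl libraries held 38.5, 41.3 and 28.7 CPM. Irf9, a DNA-binding factor of the interferon response, had 58.8, 52.0 and 54.4 CPM in shLINE_Orf1+LINE-1, against 40.2, 39.5 and 34.2 CPM in shLINE_MdV_I (log2 0.54 ± 0.12, edgeR adjusted p = 0.0456). Irf7 lost its call without shLINE_MdV_I replicate 1 (25 genes called in all there), and Irf9 lost it without any single library.

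The antiviral effectors made up 10 of the 17 calls. Oas1a, an enzyme that makes the signal for RNA decay by RNase L, had 5.36, 4.53 and 4.84 CPM in shLINE_Orf1+LINE-1, against 1.48, 2.07 and 1.88 CPM in shLINE_MdV_I. Its log2 fold change, 1.44 ± 0.22 (edgeR adjusted p = 0.00689), was the largest among the 17. Bst2, or tetherin, which holds budding viruses at the cell surface, had 67.4, 63.1 and 68.4 CPM in shLINE_Orf1+LINE-1, against 36.4, 35.7 and 35.5 CPM in shLINE_MdV_I (log2 0.89 ± 0.14, edgeR adjusted p = 0.00886). Neither gene's groups came near to each other. Oasl2, an OAS-like protein, averaged 124 ± 11.7 CPM in shLINE_Orf1+LINE-1 and 71.8 ± 6.54 CPM in shLINE_MdV_I (SD, n = 3 each), a log2 fold change of 0.79 ± 0.16 (edgeR adjusted p = 0.0289). Ifit3 had 48.7, 36.0 and 46.3 CPM in shLINE_Orf1+LINE-1, against 21.8, 22.9 and 20.3 CPM in shLINE_MdV_I (log2 1.01 ± 0.19, edgeR adjusted p = 0.0255). Ifitm3, a membrane protein that blocks viral entry, Oas1b, Parp12 and Usp18, which removes ISG15 and damps the pathway, were the other called effectors, with log2 fold changes between 0.58 (Parp12) and 0.78 (Oas1b). Oas1a lost its call without replicate 1 of either group, and Bst2 and Ifitm3 without shLINE_Orf1+LINE-1 replicate 1 or shLINE_MdV_I replicate 1 or 2. Ifit3 and Usp18 kept theirs only without shLINE_Orf1+LINE-1 replicate 2, and Oasl2, Oas1b and Parp12 lost it without any single library. Counts of Ifit3 and Ifit3b are uncertain, since they are near-identical copies between which reads can be split. Oas1a and Oas1b belong to a family of similar genes, where some reads may be split too.

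All 9 interferon-induced GTPases tested, which attack membranes around intracellular pathogens, had positive values. Of the 9, 4 were called, all higher, against 0.403% of all genes. Besides Igtp these were Irgm1, Gbp3 and Iigp1. Irgm1 had 158, 140 and 156 CPM in shLINE_Orf1+LINE-1, against 95.8, 98.5 and 89.0 CPM in shLINE_MdV_I (log2 0.68 ± 0.11, edgeR adjusted p = 0.0105). Gbp3 averaged 106 ± 8.38 CPM in shLINE_Orf1+LINE-1 and 69.7 ± 4.89 CPM in shLINE_MdV_I (SD, n = 3 each), a log2 fold change of 0.60 ± 0.12 (edgeR adjusted p = 0.0289). Iigp1 averaged 5.67 ± 0.96 CPM in shLINE_Orf1+LINE-1 and 2.25 ± 0.281 CPM in shLINE_MdV_I (log2 1.34 ± 0.29, edgeR adjusted p = 0.0488). The chemokine Ccl2, which attracts monocytes, had 5.40, 4.90 and 5.25 CPM in shLINE_Orf1+LINE-1, against 3.32, 2.19 and 2.34 CPM in shLINE_MdV_I (log2 0.98 ± 0.19, edgeR adjusted p = 0.0268). Irgm1 kept its call only without shLINE_Orf1+LINE-1 replicate 2, and Ccl2 only without shLINE_MdV_I replicate 1. Gbp3 and Iigp1 lost theirs without any single library. In the GTPase families, too, similar copies make single genes uncertain.

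**Figure D3:**
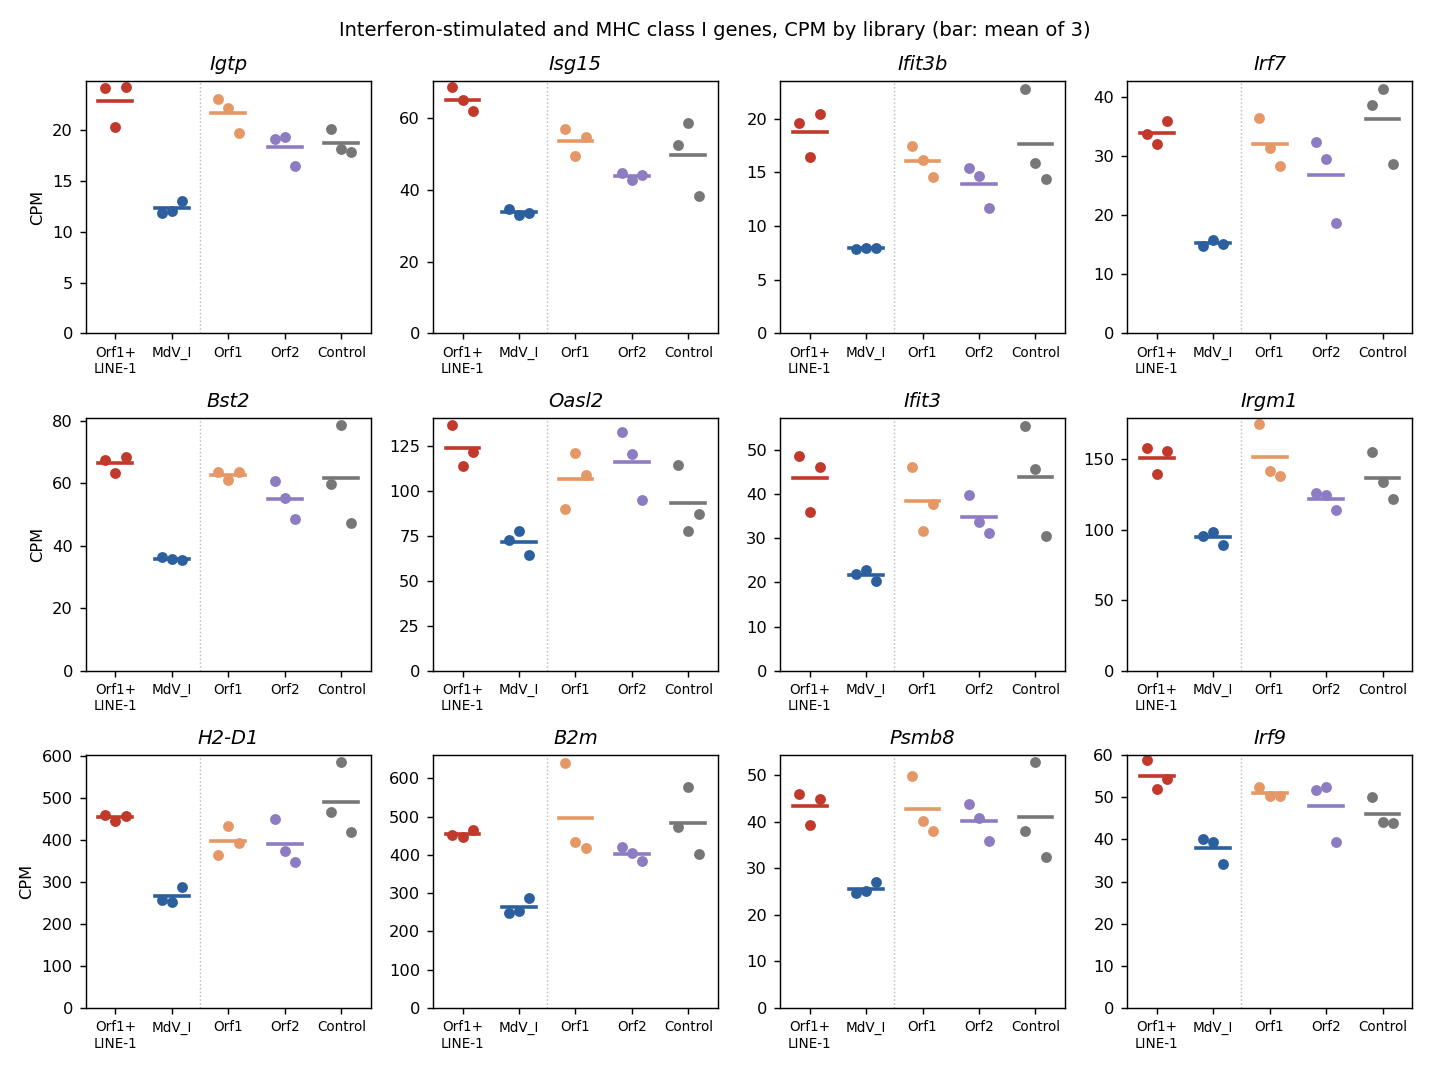
CPM by library (points) and group mean (bar) for 12 interferon-stimulated and MHC class I genes in the 5 groups, each axis starting at 0. In each panel the 3 shLINE_MdV_I libraries lie below the 3 shLINE_Orf1+LINE-1 libraries, for example Bst2 at 63.1 to 68.4 CPM in shLINE_Orf1+LINE-1 and 35.5 to 36.4 CPM in shLINE_MdV_I.

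Further genes known to respond to interferon were called but stood in no list, and they are named here after their values were seen. Trim30a averaged 9.63 ± 0.913 CPM in shLINE_Orf1+LINE-1 and 3.34 ± 1.30 CPM in shLINE_MdV_I (log2 1.53 ± 0.27). Tgtp2, a GTPase with a near-identical copy, averaged 2.72 ± 0.228 CPM in shLINE_Orf1+LINE-1 and 0.576 ± 0.119 CPM in shLINE_MdV_I (log2 2.23 ± 0.35). Slfn8, of the Schlafen family, averaged 2.17 ± 0.188 CPM in shLINE_Orf1+LINE-1 and 0.822 ± 0.0617 CPM in shLINE_MdV_I (log2 1.39 ± 0.21). For these genes CPM is given with the SD (n = 3 each) and the log2 fold change with the SE. Rtp4, Phf11d, Ube2l6 (the conjugating enzyme for ISG15), Lgals9 and Apol9a were also called higher. Of these 8 genes, Slfn8 was the only one called without each single library in turn, and Tgtp2 lost its call only without shLINE_MdV_I replicate 3.

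The sensors upstream of interferon gave no call. Of 16 RNA and DNA sensor genes tested, 13 had positive values, with a median log2 fold change of 0.38, and in 9 every shLINE_Orf1+LINE-1 library was above every shLINE_MdV_I library, as in 13.7% of all genes. The smallest p belonged to Ifi204, a DNA sensor of the IFI200 family, at 11 to 25 counts per library in shLINE_Orf1+LINE-1 and 0 to 6 in shLINE_MdV_I, with an edgeR adjusted p of 0.141. At an unadjusted p under 0.05 in edgeR (1288 of 15141 genes, either direction) 6 members were higher and 0 lower. DESeq2 called 3 higher (2.32% of all genes called in either direction), limma-voom with quality weights 9 (11% of all genes), the 6 compared libraries alone 6 (8.21%) and the fit without the divergent pair 2 (3.73%).

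Class I molecules of the MHC present peptides from inside the cell. Of 24 genes for class I chains, peptide loading and the immunoproteasome, 4 were called, all higher (16.7%, against 0.403% of all genes), and 23 had positive values. H2-D1, a classical class I heavy chain, had 459, 445 and 458 CPM in shLINE_Orf1+LINE-1, against 258, 251 and 289 CPM in shLINE_MdV_I (log2 0.77 ± 0.13, edgeR adjusted p = 0.0105). B2m, the light chain shared by all class I molecules, had 451, 446 and 464 CPM in shLINE_Orf1+LINE-1, against 247, 254 and 286 CPM in shLINE_MdV_I (log2 0.79 ± 0.15, edgeR adjusted p = 0.027). Both chains stood at nearly the same CPM in the compared groups, though CPM is not corrected for length. In shControl H2-D1 held 466, 585 and 420 CPM and B2m 474, 578 and 402 CPM.

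Psmb8, a catalytic subunit of the immunoproteasome, which cuts the peptides, had 46.0, 39.3 and 44.9 CPM in shLINE_Orf1+LINE-1, against 24.6, 25.1 and 27.1 CPM in shLINE_MdV_I (log2 0.76 ± 0.16, edgeR adjusted p = 0.0368). It was the only call among 38 proteasome subunit genes, whose median was -0.00. H2-Q4 averaged 8.06 ± 0.249 CPM in shLINE_Orf1+LINE-1 and 3.98 ± 0.452 CPM in shLINE_MdV_I (log2 1.02 ± 0.20, edgeR adjusted p = 0.0268), and reads of such class I genes can be split between similar copies. None of the 8 peptide-loading genes was called, at a median of 0.27. Without shLINE_Orf1+LINE-1 replicate 2 (0.278% of all genes called) or shLINE_MdV_I replicate 3 (0.233%) the list had 1 call, H2-D1. Without any other of the 6 libraries it had 0, with 0.129% to 0.214% of all genes called. The 6 compared libraries alone called 16 members (8.21% of all genes) and the fit without the divergent pair 11 (3.73%).

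In the glycolysis and hypoxia list a few genes were called, and most of the others had negative values. Of 39 glycolysis and hypoxia genes, 3 were called, all lower (7.69%, against 0.277% of all genes), and 36 had negative values. In 31 every shLINE_Orf1+LINE-1 library was below every shLINE_MdV_I library, as in 13.5% of all genes. All 3 calls were among the 16 HIF targets, all of which had negative values, with a median of -0.63. The 20 glycolysis genes had a median of -0.22 and no call. The genes of the HIF factors themselves gave no call, with Hif1a at -0.07 ± 0.13 and Epas1 at -0.11 ± 0.24, both named after their values were seen. The 6 compared libraries alone called 28 of the 39 lower (8.21% of all genes called in either direction), and the fit without the divergent pair 6 (3.73%). Without replicate 1 or 3 of either group 1 member was called, and without replicate 2 of either group 2 were. In these fits 0.129% to 0.278% of all genes were called.

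Vegfa, the main growth factor for blood vessels, on chromosome 17 (46016993 to 46032369, GRCm38), had 75.0, 78.2 and 77.1 CPM in shLINE_Orf1+LINE-1, against 196, 175 and 184 CPM in shLINE_MdV_I. It was 2.40-fold lower (log2 -1.27 ± 0.25, edgeR adjusted p = 0.0277). Other groups spread widely, with 112, 189 and 121 CPM in shLINE_Orf1, 323, 210 and 128 CPM in shLINE_Orf2 and 169, 151 and 164 CPM in shControl. The shLINE_Orf1+LINE-1 libraries were therefore the lowest of all 15. The HIF-induced Ankrd37 had 1.84, 2.26 and 2.84 CPM in shLINE_Orf1+LINE-1, against 13.1, 10.5 and 12 CPM in shLINE_MdV_I and 8.16, 11.6 and 8.47 CPM in shControl. It was 5.13-fold lower than in shLINE_MdV_I (log2 -2.36 ± 0.33, edgeR adjusted p = 0.00332). Ddit4, an inhibitor of mTORC1 induced by hypoxia and other stress, had 18.3, 23.9 and 23 CPM in shLINE_Orf1+LINE-1, against 49.8, 42.5 and 49.6 CPM in shLINE_MdV_I (log2 -1.12 ± 0.19, edgeR adjusted p = 0.0119). Its shControl libraries, at 33.9, 45.9 and 38.3 CPM, lay above all shLINE_Orf1+LINE-1 libraries. Ankrd37 kept its call without any single library. Ddit4 lost it without replicate 1 or 3 of either group, and Vegfa without any single library.

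**Figure D4:**
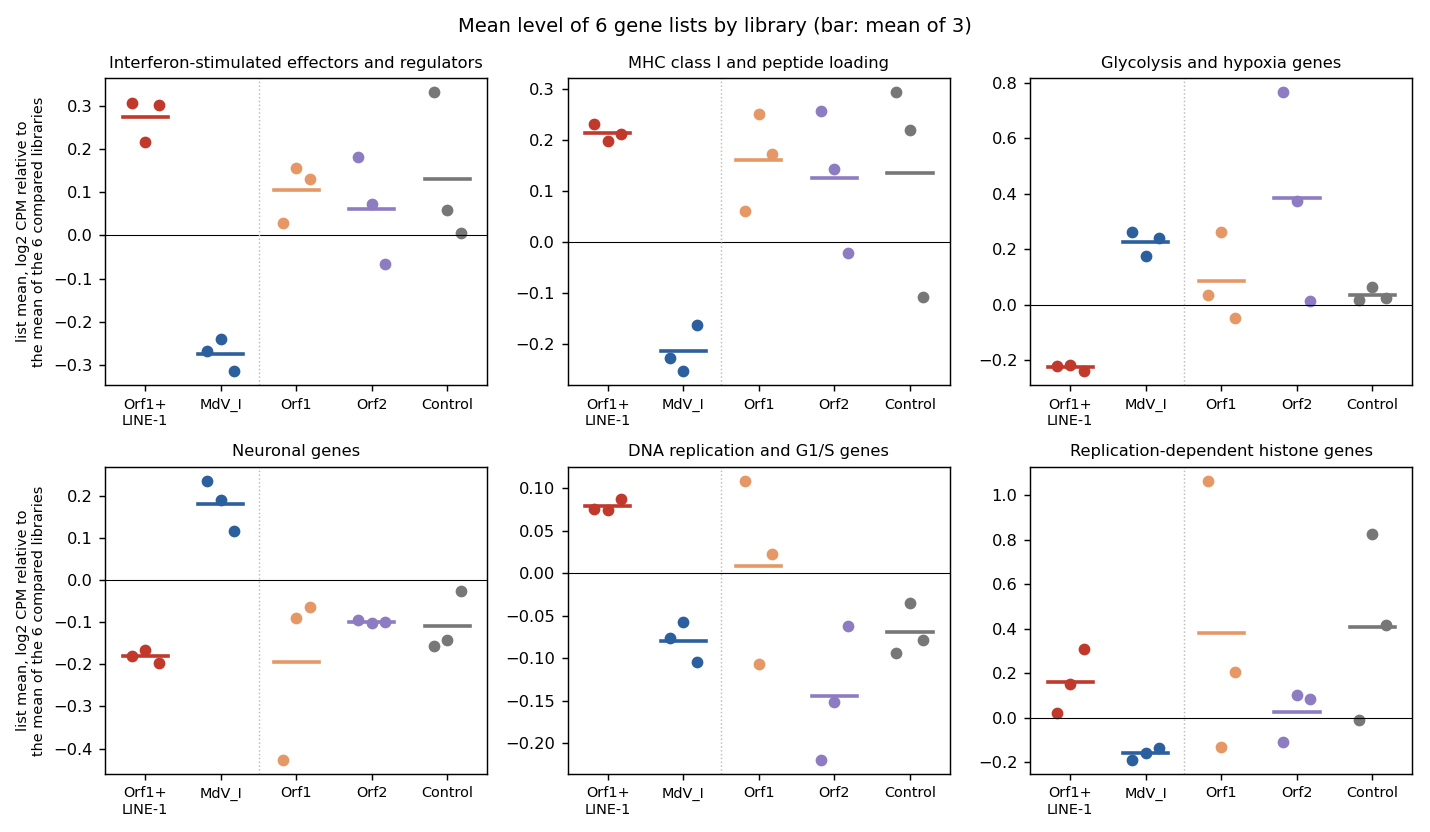
Mean level of 6 gene lists by library (points, with group means as bars), in log2 CPM relative to the mean of the 6 compared libraries. The glycolysis and hypoxia list lies between -0.24 and -0.22 in shLINE_Orf1+LINE-1 and between 0.17 and 0.26 in shLINE_MdV_I, and reaches 0.76 in shLINE_Orf2 replicate 1.

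The neuronal list had mostly negative values. Of 42 tested, 38 had negative values, with a median of -0.34, and 3 were called, all lower (7.14%, against 0.277% of all genes). Stmn4, a microtubule-binding stathmin of neurons, had 3.74, 4.06 and 4.61 CPM in shLINE_Orf1+LINE-1, against 11.4, 9.99 and 11.3 CPM in shLINE_MdV_I (log2 -1.40 ± 0.16, edgeR adjusted p = 0.00223). The shControl libraries held 4.47, 5.70 and 5.04 CPM, near those of shLINE_Orf1+LINE-1. Cplx1, a complexin that controls vesicle release at synapses, had 16.6, 20.4 and 21.0 CPM in shLINE_Orf1+LINE-1, against 34.1, 29.6 and 35.0 CPM in shLINE_MdV_I (log2 -0.77 ± 0.12, edgeR adjusted p = 0.0063). Scg3, a secretory granule protein, had 34.1, 35.2 and 33.6 CPM in shLINE_Orf1+LINE-1, against 45.6, 46.9 and 48.8 CPM in shLINE_MdV_I (log2 -0.46 ± 0.09, edgeR adjusted p = 0.0279). For these 3 genes it was the shLINE_MdV_I libraries that stood above all others of the series. Stmn4 kept its call without any single library, Cplx1 lost it without shLINE_Orf1+LINE-1 replicate 1 and Scg3 without any single library. The list had 16 calls with the 6 compared libraries alone (8.21% of all genes) and 14 without the divergent pair (3.73%). It had 1 without shLINE_Orf1+LINE-1 replicate 1 (0.129%).

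The early neuronal markers did not pass the test. Dcx, a microtubule protein of young neurons, had 2.97, 4.12 and 3.29 CPM in shLINE_Orf1+LINE-1, against 6.29, 9.24 and 6.4 CPM in shLINE_MdV_I (edgeR adjusted p = 0.105). Tubb3, the neuronal tubulin, had 9.55, 8.59 and 6.12 CPM in shLINE_Orf1+LINE-1, against 14.8, 15.5 and 11.8 CPM in shLINE_MdV_I (edgeR adjusted p = 0.0719). Their groups did not overlap, as in 13.5% of all genes in this direction, and levels were low. Of 16 proneural transcription regulators none was called by edgeR and 13 had negative values. At an unadjusted p under 0.05 (1288 of 15141 genes, either direction) 2 were lower, and DESeq2 (2.32% of all genes) called 1 lower. The smallest p was that of Neurod1, at 12 to 20 counts per library in shLINE_Orf1+LINE-1 and 48 to 57 in shLINE_MdV_I (edgeR adjusted p = 0.101). Summed over 45 neuronal genes, CPM ranged from 2208 to 2245 in shLINE_Orf1+LINE-1 libraries and from 2508 to 2568 in shLINE_MdV_I libraries.

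Of the glial lists, the oligodendrocyte list held 1 called gene (4.55% of those tested) and the astrocyte list 2 (6.25%). Over all genes 0.403% were called higher and 0.277% lower. Sox10, a transcription factor of the oligodendrocyte lineage, had 3.65, 3.10 and 3.08 CPM in shLINE_Orf1+LINE-1, against 8.41, 7.13 and 5.34 CPM in shLINE_MdV_I (log2 -1.09 ± 0.22, edgeR adjusted p = 0.0289). It was the only call among 22 genes tested, of which 15 had negative values. Olig2, which marks the same lineage earlier, averaged 842 ± 21.7 CPM in shLINE_Orf1+LINE-1 and 836 ± 70.9 CPM in shLINE_MdV_I (SD, n = 3 each; edgeR adjusted p = 0.999). Among 32 astrocyte genes, 22 had positive values. Sparcl1, or hevin, a secreted protein that promotes synapses, had 357, 338 and 370 CPM in shLINE_Orf1+LINE-1, against 213, 225 and 251 CPM in shLINE_MdV_I (log2 0.63 ± 0.11, edgeR adjusted p = 0.0116). Timp3, an inhibitor of matrix proteases, had 34.3, 33.7 and 34.7 CPM in shLINE_Orf1+LINE-1, against 22.1, 20.3 and 21.0 CPM in shLINE_MdV_I (log2 0.70 ± 0.14, edgeR adjusted p = 0.0297). It was also the only call among 49 collagen, laminin, integrin and other matrix genes. Sox10 kept its call only without shLINE_MdV_I replicate 3, Sparcl1 only without shLINE_Orf1+LINE-1 replicate 2 or shLINE_MdV_I replicate 3, and Timp3 lost it without any single library. The oligodendrocyte list had 5 calls with the 6 compared libraries alone (8.21% of all genes), all lower, and the astrocyte list 11 higher and 1 lower.

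Progenitor markers were expressed in both groups. Sox2 was at 170 to 178 CPM in shLINE_Orf1+LINE-1 and 190 to 207 CPM in shLINE_MdV_I, Nes at 297 to 336 CPM in shLINE_Orf1+LINE-1 and 270 to 314 CPM in shLINE_MdV_I, and neither was called. Of 31 neural stem cell genes tested edgeR called none. At an unadjusted p under 0.05 (1288 of 15141 genes, either direction) 2 were higher, and DESeq2 (2.32% of all genes) called 1 higher. The smallest p was that of Id4, at 8.57, 8.44 and 8.83 CPM in shLINE_Orf1+LINE-1, against 5.49, 4.85 and 5.23 CPM in shLINE_MdV_I (edgeR adjusted p = 0.11). Markers of immune and vascular cells, in which interferon-stimulated genes and Ccl2 are also expressed, varied in level. The endothelial marker Pecam1 stood well above Aif1, Ptprc and Cdh5. The microglial marker Aif1 had no count in any library and Ptprc was at most 0.252 CPM in the compared groups. Summed over 14 myeloid genes, CPM was 34.1 to 36.2 in shLINE_Orf1+LINE-1 and 32.7 to 36.2 in shLINE_MdV_I, with 5 and 6 of the 14 at 0 in all libraries of the group. Over 14 endothelial and mural genes it was 45.3 to 48.4 in shLINE_Orf1+LINE-1 and 44.4 to 48.4 in shLINE_MdV_I. Pecam1 alone, on scaled totals, had 28.9 to 33.6 CPM in shLINE_Orf1+LINE-1 and 29.8 to 32.8 CPM in shLINE_MdV_I, while Cdh5 had at most 2 counts in a library. Over 10 ependymal and choroid genes the summed CPM was 15.2 to 15.8 in shLINE_Orf1+LINE-1 and 11.5 to 13.6 in shLINE_MdV_I. Foxj1, which drives the making of cilia, had 10.8, 10.9 and 10.9 CPM in shLINE_Orf1+LINE-1, against 7.41, 6.62 and 8.41 CPM in shLINE_MdV_I (edgeR adjusted p = 0.148). Of the myeloid and vascular genes, Cd68 (edgeR adjusted p = 0.203) and Tek (edgeR adjusted p = 0.882) had the smallest p.

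Among the redox and stress lists, the glutathione and NRF2 list held 2 calls and the others 1 each. Over all genes 0.403% were called higher and 0.277% lower. Gstm1, a glutathione transferase that detoxifies electrophiles, had 252, 245 and 265 CPM in shLINE_Orf1+LINE-1, against 151, 152 and 177 CPM in shLINE_MdV_I (log2 0.67 ± 0.09, edgeR adjusted p = 0.00378). Srxn1, which repairs oxidised peroxiredoxins and is a target of the oxidant-sensing factor NRF2, had 38.3, 35.3 and 37.0 CPM in shLINE_Orf1+LINE-1, against 23.1, 22.5 and 23.5 CPM in shLINE_MdV_I (log2 0.68 ± 0.10, edgeR adjusted p = 0.0063). These were the 2 calls among 36 glutathione and NRF2 genes, 28 of which had positive values. Cryab, a small heat shock protein, had 54.4, 57.6 and 55.8 CPM in shLINE_Orf1+LINE-1, against 30.6, 28.9 and 35.2 CPM in shLINE_MdV_I (log2 0.82 ± 0.11, edgeR adjusted p = 0.00323). It was the only call among 20 heat shock genes, and here both groups lay above shControl, at 18.3, 20.5 and 20.3 CPM. In shLINE_Orf1, without the added LINE-1, Cryab had 69.9, 58.3 and 53.9 CPM. Btg2, an antiproliferative p53 target and early response gene, had 57.0, 54.3 and 54.0 CPM in shLINE_Orf1+LINE-1, against 92.9, 83.3 and 99.3 CPM in shLINE_MdV_I (log2 -0.74 ± 0.10, edgeR adjusted p = 0.00332). It was the only call among 34 p53 targets and among 31 immediate early genes. Gstm1, Cryab and Btg2 kept their calls without any single library, and Srxn1 lost its call without shLINE_Orf1+LINE-1 replicate 1.

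**Figure D5:**
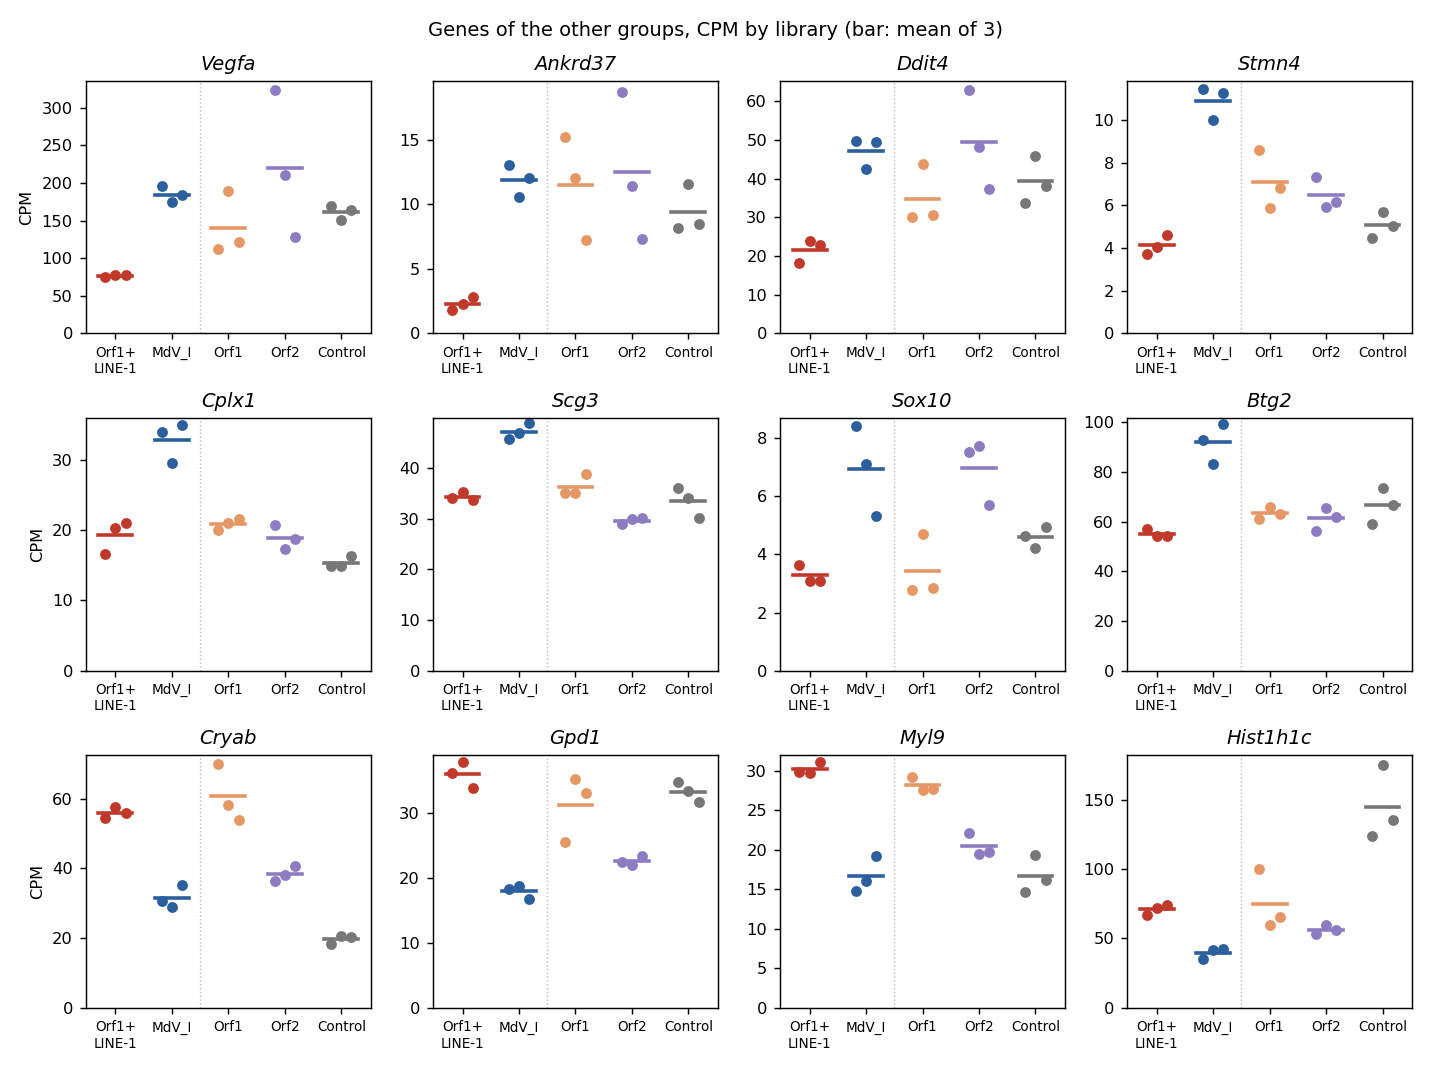
CPM by library (points) and group mean (bar) for 12 called genes of the hypoxia, neuronal, glial, stress and other groups in the 5 groups of the series, each axis starting at 0. In Vegfa and Ankrd37 the shLINE_Orf1+LINE-1 libraries are the lowest of the 15, and in Stmn4, Cplx1, Scg3 and Btg2 the shLINE_MdV_I libraries are the highest.

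Hist1h1c, which encodes a linker histone, had 67.0, 72.4 and 74.3 CPM in shLINE_Orf1+LINE-1, against 34.9, 41.6 and 42.2 CPM in shLINE_MdV_I (log2 0.85 ± 0.17, edgeR adjusted p = 0.0293). Both groups lay below shControl, at 124, 175 and 136 CPM, and shLINE_Orf1 held 100, 59.9 and 65.4 CPM. Hist1h1c was the only call among 62 replication-dependent histone genes (1.61%, against 0.403% of all genes). Of the 62, 52 had positive values, with a median of 0.30. The call was lost without any single library. Reads of these genes can be split between near-identical copies. Cell cycle lists held no call in edgeR. Of 36 DNA replication and G1/S genes, 33 had positive values with a median of 0.15, and in 19 every shLINE_Orf1+LINE-1 library was above every shLINE_MdV_I library, as in 13.7% of all genes. The smallest p was that of Rrm2, a subunit of ribonucleotide reductase, at 848, 823 and 827 CPM in shLINE_Orf1+LINE-1, against 648, 690 and 663 CPM in shLINE_MdV_I (edgeR adjusted p = 0.138). At an unadjusted p under 0.05 in edgeR (1288 of 15141 genes, either direction) 5 of the 36 were higher. DESeq2 called 2 (2.32% of all genes) and the 6 compared libraries alone 12 (8.21%), all higher. Of 42 G2/M genes 31 had positive values, with a median of 0.07, and Prc1, of the spindle midzone, had the smallest p (edgeR adjusted p = 0.509) and was the 1 member with an unadjusted p under 0.05, with 0 calls by DESeq2.

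Among the genes in no list, Gpd1 had the smallest p of all genes tested. It encodes the cytosolic glycerol-3-phosphate dehydrogenase, which links glycolysis to lipid synthesis (chromosome 15, 99717515 to 99725005, GRCm38). It had 36.2, 37.9 and 33.9 CPM in shLINE_Orf1+LINE-1, against 18.3, 18.7 and 16.8 CPM in shLINE_MdV_I, a 2.01-fold difference (log2 1.01 ± 0.12, edgeR adjusted p = 0.00223). Its shControl libraries held 34.8, 33.4 and 31.8 CPM. Myl9, a regulatory light chain of myosin, had 29.8, 29.7 and 31.1 CPM in shLINE_Orf1+LINE-1, against 14.8, 16.0 and 19.2 CPM in shLINE_MdV_I (log2 0.86 ± 0.12, edgeR adjusted p = 0.00413). Here shControl, at 14.6, 19.3 and 16.1 CPM, lay with shLINE_MdV_I, while shLINE_Orf1 without the added LINE-1 held 29.2, 27.5 and 27.7 CPM. Tmem37 averaged 14.2 ± 0.129 CPM in shLINE_Orf1+LINE-1 and 7.48 ± 0.693 CPM in shLINE_MdV_I (SD, n = 3 each; log2 0.92 ± 0.13). Its means were 13.7 ± 0.661 CPM in shLINE_Orf1 and 8.81 ± 1.71 CPM in shControl. Slc39a12, a zinc transporter, averaged 14.2 ± 2.03 CPM in shLINE_Orf1+LINE-1 and 7.83 ± 1.27 CPM in shLINE_MdV_I (log2 0.85 ± 0.17). Gpd1, Myl9 and Tmem37 kept their calls without any single library, and Slc39a12 only without shLINE_Orf1+LINE-1 replicate 2.

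Degs1, Rasd1 and Pdlim3, also called without each single library, fell outside the naming rule and were chosen after their values were seen. Degs1, the desaturase of the last step of ceramide synthesis, had 182, 183 and 181 CPM in shLINE_Orf1+LINE-1, against 121, 115 and 117 CPM in shLINE_MdV_I (log2 0.63 ± 0.08, edgeR adjusted p = 0.00323). Its other 9 libraries lay between 172 and 207 CPM, so shLINE_MdV_I was the group that stood apart. Rasd1, a Ras-like GTPase induced by glucocorticoids, had the largest absolute log2 fold change of the called genes (-3.31 ± 0.40, edgeR adjusted p = 0.00223). It held 5 to 14 counts per library in shLINE_Orf1+LINE-1 and 92 to 133 in shLINE_MdV_I, and the shLINE_MdV_I libraries, at 1.87 CPM or more, stood above all others, which held at most 0.622 CPM. Pdlim3, a protein of actin fibres, averaged 0.83 ± 0.12 CPM in shLINE_Orf1+LINE-1 and 2.96 ± 0.343 CPM in shLINE_MdV_I (SD, n = 3 each; log2 -1.83 ± 0.23), and there the other 9 libraries, at 1.93 to 3.84 CPM, lay above shLINE_Orf1+LINE-1.

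Signalling and transport genes were among the lower ones. Dgkg, a diacylglycerol kinase, had 9.74, 9.06 and 9.52 CPM in shLINE_Orf1+LINE-1, against 18.9, 16.2 and 17.3 CPM in shLINE_MdV_I (log2 -0.89 ± 0.12, edgeR adjusted p = 0.00323), and kept its call without any single library. Prkcq, protein kinase C theta, averaged 9.92 ± 0.673 CPM in shLINE_Orf1+LINE-1 and 17.4 ± 2.42 CPM in shLINE_MdV_I (log2 -0.81 ± 0.15). Pak3, a kinase of dendritic spines, averaged 9.71 ± 0.833 CPM in shLINE_Orf1+LINE-1 and 15.8 ± 0.978 CPM in shLINE_MdV_I (log2 -0.70 ± 0.11). Ppp2r2b, a brain-enriched subunit of the phosphatase PP2A, averaged 25 ± 1.09 CPM in shLINE_Orf1+LINE-1 and 41.7 ± 2.19 CPM in shLINE_MdV_I (SD, n = 3 each throughout; log2 -0.74 ± 0.12). Ap3b2, a subunit of the neuronal AP-3 vesicle coat, averaged 12.5 ± 0.771 CPM in shLINE_Orf1+LINE-1 and 21.3 ± 2.36 CPM in shLINE_MdV_I (log2 -0.77 ± 0.15). Ap3b2 is outside the neuronal list and is set beside it here after its values were seen. Other called genes outside that list were not sorted by cell type, so Ap3b2 is no added support for the list's direction.

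The remaining genes named by the rule were lower too. Pycr1, the last enzyme of proline synthesis, had 15.3, 15.4 and 15.5 CPM in shLINE_Orf1+LINE-1, against 26.0, 25.4 and 22.8 CPM in shLINE_MdV_I (log2 -0.68 ± 0.11, edgeR adjusted p = 0.0088). Slc7a3, a transporter of cationic amino acids, averaged 9.14 ± 0.116 CPM in shLINE_Orf1+LINE-1 and 16.6 ± 0.892 CPM in shLINE_MdV_I (log2 -0.86 ± 0.18). Acss2, which makes acetyl-CoA from acetate, averaged 91.7 ± 2.84 CPM in shLINE_Orf1+LINE-1 and 128 ± 2.69 CPM in shLINE_MdV_I (SD, n = 3 each throughout; log2 -0.49 ± 0.10) and was the only call among 35 cholesterol and fatty acid synthesis genes. Ciart, a repressor of the circadian clock, averaged 5.84 ± 0.84 CPM in shLINE_Orf1+LINE-1 and 12.2 ± 1.40 CPM in shLINE_MdV_I (log2 -1.06 ± 0.22). Pnrc1 (log2 -0.82 ± 0.15), a coactivator of nuclear receptors, and Narf (log2 -0.69 ± 0.15) were the last of these. Their levels were 38.5 ± 3.61 CPM for Pnrc1 and 22.1 ± 1.62 CPM for Narf in shLINE_Orf1+LINE-1, against 67.8 ± 1 CPM and 35.7 ± 3.74 CPM in shLINE_MdV_I.

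Those lower genes other than Dgkg all lost the call in some fit with 1 library left out. Ppp2r2b did so without replicate 1 of either group or shLINE_MdV_I replicate 2, and Pak3 without shLINE_Orf1+LINE-1 replicate 1 or 2 or shLINE_MdV_I replicate 3. Pycr1 kept the call only without shLINE_Orf1+LINE-1 replicate 2 or shLINE_MdV_I replicate 3, and Prkcq only without shLINE_MdV_I replicate 3. Ap3b2, Slc7a3, Acss2, Ciart, Pnrc1 and Narf lost it without any single library. Their directions did not change in these fits, and could hardly do so, since the compared groups do not overlap in any called gene.

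Lists for the control of LINE-1 and for growth factor, Notch and Wnt signals gave no call in edgeR. At an unadjusted p under 0.05 (1288 of 15141 genes, either direction), 1 of 38 LINE-1 restriction genes was lower and 1 of 18 FGF and EGF feedback genes higher. Of 23 Notch genes 1 was higher and 5 lower at that threshold, and of 23 Wnt genes 1 was lower. DESeq2 (2.32% of all genes) called 2 Notch genes, both lower, and 0 in the other lists. Of 38 genes for LINE-1 restriction and heterochromatin, such as the HUSH complex and DNA methylation, 19 had positive and 19 negative values, with a median of -0.00. The smallest p there was that of Tet2, an enzyme of DNA demethylation, at 10.3, 9.83 and 9.56 CPM in shLINE_Orf1+LINE-1, against 12.1, 13.6 and 13.1 CPM in shLINE_MdV_I (edgeR adjusted p = 0.235). FGF and EGF feedback genes had a median of 0.07, Notch genes of -0.12 and Wnt genes of -0.09. Dusp6, which turns off ERK below the FGF receptor, averaged 611 ± 17.3 CPM in shLINE_Orf1+LINE-1 and 436 ± 48.3 CPM in shLINE_MdV_I (SD, n = 3 each; edgeR adjusted p = 0.206). Dll3, a Notch ligand, had 32.1, 32.1 and 33.4 CPM in shLINE_Orf1+LINE-1, against 51.8, 62.2 and 45.8 CPM in shLINE_MdV_I (edgeR adjusted p = 0.0755). Sp5, a Wnt target, was at 7 to 12 counts in shLINE_Orf1+LINE-1 and 18 to 25 in shLINE_MdV_I (edgeR adjusted p = 0.364). Of 38 genes of the integrated stress and unfolded protein responses, Ddit4 was the only call, with a median of -0.10.

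Lists of genes for ribosomes, lysosomes and mitochondria had no call in edgeR. At an unadjusted p under 0.05 (1288 of 15141 genes, either direction) 5 lysosomal genes and 1 nucleolar gene were higher and 0 in the other lists. DESeq2 (2.32% of all genes) called 2 lysosomal genes higher and 0 in the other lists. The median log2 fold change was -0.02 for 83 cytosolic ribosomal protein genes, 0.06 for 55 nucleolar genes, 0.09 for 42 lysosomal genes and 0.07 for 78 nuclear oxidative phosphorylation genes. The members with the smallest p were Rpl3 (edgeR adjusted p = 0.892), Ubtf (edgeR adjusted p = 0.476), Lamp1 (edgeR adjusted p = 0.197) and Cyc1 (edgeR adjusted p = 0.861). All 12 mitochondrially encoded mRNAs had positive values, with a median of 0.23, and none was called. In 4 of the 12 the shLINE_Orf1+LINE-1 libraries were all above the shLINE_MdV_I libraries (13.7% of all genes), and in the others the groups overlapped. In mt-Nd2, 1 of the 4, shLINE_MdV_I replicate 3 lay next to the other group, with 240, 240 and 269 CPM in shLINE_Orf1+LINE-1, against 158, 162 and 239 CPM in shLINE_MdV_I (edgeR adjusted p = 0.857). As a description across genes, which are not independent, the Pearson correlation of log2 exonic length with log2 fold change was -0.0199.

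The last number of the library descriptions, whose meaning the labels do not give, is 12 in shLINE_MdV_I replicates 2 and 3 and 1 in the other 4 compared libraries. The only other library with a 12 is the divergent shLINE_Orf1 replicate 1, so a fit of all libraries with this number estimates its effect partly from that library. With this number as a covariate, 101 genes (0.667%) were called, 49 higher and 52 lower, and 60 of them were among the 103. The interferon list then had 13 calls, the MHC class I list 2, the neuronal list 6 and the glycolysis and hypoxia list 3. List medians moved, to 0.65 for the histone list, against 0.30 without the covariate, and to -0.26 for the collagen, laminin and integrin list, against 0.09, where Timp3 was no longer called. Within the number 1, shLINE_MdV_I has a single library, so no value with a spread can be given there. That library, replicate 1, held 11.9 CPM of Igtp, 34.8 CPM of Isg15 and 196 CPM of Vegfa, given above beside replicates 2 and 3.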

How the data were processed

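Libraries of SMART-seq2 type were made from sorted GFP-positive mouse neural progenitor cells, per the labels' protocols. The authors deposited RSEM expected counts per transcript. The submitters' processing notes name cutadapt, RSEM and mm10. For versions, annotation, settings and strand, the sources used here give nothing. A table of the authors' model fits was not used.

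Of 111462 transcripts, 110115 matched GENCODE M21 (GRCm38) and were summed to 34910 genes and rounded. The 1347 unmatched held 0.595% to 0.65% of counts, and a row with no name was left out. Totals were 39204176 to 51070448 per library. edgeR 4.0.16 (TMM, filterByExpr with a minimum count of 10, robust glmQLFit, glmQLFTest) was fitted to all 15 libraries by group with R 4.3.3, and p-values were adjusted by the Benjamini-Hochberg method over 15141 genes, with calls under 0.05. CPM values used TMM-scaled totals, except sums over marker lists and genes that were not tested, which used unscaled totals. List levels used log2 CPM with a prior count of 2. After a CPM mean, ± gives the SD of 3 libraries. After a log2 fold change it gives an SE, derived from the fold change and the F value of the test. The procedure was also run on simulated counts with a smaller spread than estimated here and no divergent libraries. That run therefore does not test how such libraries move the calls.

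Alternatives were RLE scaling, unscaled library sizes, no filter, a filter of 50 counts in 3 libraries, thinning, DESeq2 1.42.0, limma-voom 3.58.1 with quality weights, fewer libraries, a replicate block, the description's last number as a covariate, and each of the 6 libraries left out, which leaves 2 in that group.

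The comparison and the gene lists were chosen with earlier results of these data known, so their counts are no independent support. Named genes are the called ones with the largest absolute log2 fold change (up to 14 a direction, mean log2 CPM of at least 3, groups not overlapping, no predicted gene or clone), up to 4 called members with the smallest p per list and direction, the member with the smallest p of a list with no call, and cell type markers. Of the cell type markers only some are given, and the neuronal marker Rbfox3 is not among them. Named genes outside this rule were chosen after their values were seen, as were the called members of the interferon, MHC and hypoxia lists beyond the first 4.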

Additional observations from a re-analysis of the deposited data

How the results depend on the processing

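The number of genes called depended on the libraries fitted and the test. Directions of the called genes were kept, but these fits could hardly test them, since the groups did not overlap in any called gene. The 103 genes called (61 higher, 42 lower in shLINE_Orf1+LINE-1) kept their sign under every alternative that gave a value, which was all 18 for 101 of them and 17 for Dlx3 and Barhl2. DESeq2 called 352 (201 higher, 151 lower), limma-voom with quality weights 1667 (846 and 821), the 6 compared libraries alone 1190 (622 and 568), and the fit without shLINE_Orf1 replicate 1 and shControl replicate 2 called 575 (322 and 253). All 103 genes were among the calls of each of these. Leaving out 1 of the 6 libraries gave 20 to 43 calls, 14 to 27 higher and 6 to 16 lower, in fits with fewer samples. RLE scaling, unscaled library sizes, no filter, the 50-count filter and thinning gave 78 to 116 calls. With the description's last number as a covariate the split was 49 higher and 52 lower. For the 41 called genes named by the rule, 571 values under alternatives stayed past the threshold and 167 did not. The cause was not tested.

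The labels do not say whether the replicate numbers pair the samples. The correlations below cannot decide it, since each deviation is from a mean of only 3 libraries. Deviations of same-numbered libraries correlated at -0.014, -0.037 and 0.116, and only replicate 3 correlated best with its own number. With the replicate block in the fit of all libraries 69 genes were called (42 higher, 27 lower), 68 of them among the 103. With the replicate block in the fit of the 6 compared libraries 1871 were called (981 higher, 890 lower).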
